A study of Homo sapiens with 12 samples.

Results

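The comparison set an induced YAP5SA podocyte line against an induced GFP podocyte line, both given doxycycline, across every gene of the expression table. It used 6 of the 12 RNA-seq libraries of the series, 3 from each line, taken by their labels. The parent line is a conditionally immortalized human podocyte line that carries a thermolabile SV40 large-T antigen, divides at 33 °C, and leaves the cell cycle and differentiates at 37 °C, where it was kept for 12 days before the drug. Stable derivatives carried a Tet-On construct, pCW-eGFP in the control line and pCW-(FLAG-NLS-)YAP5SA in the other, so that doxycycline switches on either a fluorescent protein or the YAP mutant. Both groups compared here received 0.1 µg/ml doxycycline for 24 hours, which leaves the transgene and the line as the differences between them. The other 6 libraries, 3 per line without the drug, entered the model and a comparison without induction. The sources used here do not say whether a line was 1 clone or a pool, or whether replicates 1 to 3 were separate cultures. P-values here therefore rest on a spread between libraries that may be only technical.

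YAP is a transcriptional co-activator that the Hippo kinases MST1/2 and LATS1/2 keep in the cytoplasm by phosphorylation. In the nucleus it binds TEAD factors, which recognise the sequence GGAATG or its reverse complement CATTCC, and switches on genes for matrix signalling, adhesion and growth such as CCN1, CCN2 and ANKRD1. YAP5SA has its LATS phosphorylation sites replaced by alanine and so resists this inhibition. Podocytes are the cells on the outer side of the glomerular capillary, where they share a basement membrane of type IV collagen and laminin with the endothelium and hold the filtration slit with an actin-based foot process.

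The deposited numbers carry a mark of adjustment that bears on every value below. For all but 31 of 62656 genes, the replicate 1 values summed over the 4 groups equalled the mean of the replicate 2 and replicate 3 sums within 4 units. All 31 exceptions held a 0 in some library. The median gene ratio of a library to the average library was within 1% of 1 for all 12. The numbers were therefore read as normalised expression values adjusted between replicate 1 and replicates 2 and 3, here called adjusted values, and not as read counts. An offset of that kind leaves differences within a replicate number as they were but alters ratios, most of all for genes near 0. Library totals were 24540845 to 25138037 in the GFP libraries with doxycycline and 25855259 to 25993413 in the YAP5SA libraries with it. The podocyte label was checked against defining markers, and these were nearly absent in both lines: NPHS1 (nephrin) was at most 5 and WT1 at most 12 in any library.

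The induced lines differed across much of the expressed transcriptome. Rises and falls below mean higher or lower in YAP5SA than in GFP, both with the drug, and not a change upon induction. Of 17604 genes tested, 6756 were called at an adjusted p below 0.05 (38.4%), 3537 of them higher in YAP5SA (20.1%) and 3219 lower (18.3%). Most differences were small: the median absolute log2 difference was 0.41 among called genes and 0.20 over all genes tested, 4021 called genes differed by less than 0.5, and 867 differed by at least 1, of which 439 were higher (2.49%) and 428 lower (2.43%). Changes of at least 2 were mostly rises, 78 against 23. The share called was 43.5% of 13757 protein-coding genes, 26.7% of 830 lincRNAs and 20.8% of 1082 antisense RNAs. Same-numbered libraries of the lines differed in the called direction in all 3 pairs for 6709 called genes (99.3%), and in 1 common direction for 63.8% of all genes tested. Separate ranges of the 3 libraries of each line were common: 24.9% of genes tested were separate and higher in YAP5SA, and 22.5% separate and lower. An adjustment across replicates can narrow the spread that a test uses. A fit with a term for replicate 1 against replicates 2 and 3 called 6005 genes, and replicates 2 and 3 alone called 3087. With the replicate number as a block within the 6 libraries, which leaves 2 residual degrees of freedom against 8, 6750 genes were called. Of the called genes described below, 16 missed the threshold in that fit at adjusted p of 0.0531 to 0.312: YAP1, ANKRD1, TEAD3, PLAU, FLNA, ITGB2, CLDN4, BIRC3, DDIT4, ANLN, CDC20, BUB1B, CLIC5, PTPRQ, KLHL4 and VCAM1. In replicates 2 and 3 alone 10 did: WWTR1, TEAD3, FLNA, SYNPO, SERPING1, LTBP1, BUB1B, SLC2A1, PLXNA3 and PPARGC1A. With library totals scaled to be equal, 2639 genes were called higher and 4116 lower, so which direction held the majority depended on the scaling.

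YAP1 itself was the gene the construct was built to raise. YAP1 (ENSG00000137693, chromosome 11, 102110461 to 102233423 on GRCh38) stood at 4484, 8211 and 7885 in GFP replicates 1 to 3 and at 44429, 42382 and 24580 in YAP5SA replicates 1 to 3. The groups did not overlap, and YAP5SA replicate 3 held less than its companions. The log2 difference was 2.44 ± 0.38 (SE), with an adjusted p of 0.00109 from limma, or 0.0712 with the block within the 6 libraries. Within replicate numbers the surplus was 39945, 34171 and 16695. The row cannot separate transgene from endogenous transcripts, and no row for eGFP was used. WWTR1, which encodes the YAP paralog TAZ, was 0.13 ± 0.04 higher on the log2 scale (adjusted p = 0.0103), a difference that was 0.07 and not called with equal totals.

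Most established YAP/TAZ targets were higher. Of 21 tested, 15 were called higher and none lower, against 20.1% higher among all genes, and the median log2 difference was 0.45 against -0.0026 over all genes. Members of this list, as of the others, were chosen with earlier results of these data known. The count is therefore a description and not a test of YAP activity. CCN2, a matricellular protein and a standard YAP reporter gene, was 9418, 9164 and 10974 in GFP and 20135, 22783 and 19450 in YAP5SA, a log2 difference of 1.08 ± 0.09 (adjusted p = 3.17e-06). ANKRD1, a titin-associated ankyrin-repeat protein, was 3211, 1742 and 3353 in GFP and 9686, 11574 and 11462 in YAP5SA, or 2.03 ± 0.30 (adjusted p = 0.000744, or 0.056 with the block within the 6 libraries). In both genes every YAP5SA library lay above every GFP library, and GFP replicate 2 of ANKRD1 was the lowest of its group.

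Other targets rose by less. CCN1, another matricellular target, was 20911, 21311 and 20573 in GFP and 28068, 31637 and 26246 in YAP5SA, which is 0.45 ± 0.06 on the log2 scale (adjusted p = 4.2e-05). The receptor tyrosine kinase gene AXL rose by 0.52 ± 0.05 (adjusted p = 1.83e-06). NT5E, which encodes the surface 5′-nucleotidase CD73, was among the most even, with 4541 to 4842 in GFP and 9122 to 9263 in YAP5SA (0.98 ± 0.05, adjusted p = 1.66e-08). Without the groups overlapping, the spread of NT5E within a line was small beside the gap between lines.

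Sequence upstream of 4 of the genes that rose is printed, chosen because it holds the TEAD core motif, searched on both strands as GGAATG and CATTCC, shown in capitals. Each run is the 250 bases before a RefSeq start site on GRCh38.p14, read 5′ to 3′ on the strand of the gene: CCN2 at chr6:131951373-131951622 (minus strand), ANKRD1 at chr10:90921088-90921337 (minus), the second annotated start of AMOTL2 at chr3:134374448-134374697 (minus) and THBS1 at chr15:39580829-39581078 (plus).
CCN2: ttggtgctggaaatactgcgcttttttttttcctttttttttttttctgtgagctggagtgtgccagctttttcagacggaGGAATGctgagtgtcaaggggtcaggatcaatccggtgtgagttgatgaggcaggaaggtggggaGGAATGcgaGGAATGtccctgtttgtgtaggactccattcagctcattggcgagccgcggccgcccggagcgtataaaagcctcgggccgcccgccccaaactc
ANKRD1: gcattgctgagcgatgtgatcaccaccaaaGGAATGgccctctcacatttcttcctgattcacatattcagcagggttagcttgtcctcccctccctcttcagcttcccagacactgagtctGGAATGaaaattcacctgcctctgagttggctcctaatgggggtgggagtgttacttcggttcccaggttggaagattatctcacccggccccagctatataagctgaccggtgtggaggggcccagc
AMOTL2: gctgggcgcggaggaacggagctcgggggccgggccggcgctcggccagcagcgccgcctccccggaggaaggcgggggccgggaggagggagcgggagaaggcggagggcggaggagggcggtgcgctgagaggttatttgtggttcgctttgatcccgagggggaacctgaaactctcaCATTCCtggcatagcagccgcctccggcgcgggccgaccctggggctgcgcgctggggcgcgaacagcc
THBS1: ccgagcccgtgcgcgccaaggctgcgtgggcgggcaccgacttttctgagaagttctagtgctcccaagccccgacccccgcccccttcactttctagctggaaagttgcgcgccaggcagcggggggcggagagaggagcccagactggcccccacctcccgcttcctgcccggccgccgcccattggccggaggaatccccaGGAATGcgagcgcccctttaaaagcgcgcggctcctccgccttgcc

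On GRCh38, GENCODE 29 places CCN2 (ENSG00000118523) at 131948176 to 131951373 of chromosome 6 and ANKRD1 (ENSG00000148677) at 90912096 to 90921276 of chromosome 10. CCN2 held 3 matches, beginning 169, 104 and 95 bases before its start, ANKRD1 held 2, and AMOTL2 and THBS1 held 1 each. The same 250 bases held no match at the first start of AMOTL2 or at the starts of LATS2, NT5E, SLC7A5 and FBLN5, genes that also rose. Of the 22 listed targets 16 had a window in the table, and 8 of these held the motif in the 250 bases before the start. By window that was 8 of 18, where 9.98% of the windows of all genes tested held it in those 250 bases. The shares that follow are for the 300 bases from 250 before to 50 after the start. Over all genes tested 11.6% of 17560 windows held the motif there. The share was 13.3% for genes called higher, 11% for genes called lower and 11.1% for genes not called. Among genes higher by at least 1 on the log2 scale it was 16.6% of 482 windows, and among genes lower by at least 1 it was 10.6% of 405. These shares describe letters in a short window and were not tested, and 1 gene can have several windows.

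Hippo pathway genes that were called were mostly higher, inhibitors of YAP included. Of 33 tested, 19 were higher and 6 lower, where 20.1% and 18.3% of all genes were, with a median of 0.26. This list shares members with the YAP/TAZ targets above, LATS2 for example, so the counts are not independent. AMOTL2 and PTPN14, described below, were also among those targets. LATS2, a kinase that phosphorylates YAP, was 3423, 3113 and 3688 in GFP and 8911, 9659 and 8735 in YAP5SA, a log2 difference of 1.42 ± 0.07 (adjusted p = 2.01e-08). AMOTL2, an angiomotin-family protein that binds and restrains YAP, was 8088, 7614 and 8201 in GFP and 17488, 20497 and 16234 in YAP5SA (1.17 ± 0.08, adjusted p = 2.59e-07). The YAP5SA values of both genes exceeded every GFP value by a wide margin.

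The scaffold genes WWC2 and WWC1, whose proteins promote LATS activity, rose by 1.20 ± 0.07 and 0.63 ± 0.04 (adjusted p = 1.84e-07 and 2.09e-07). PTPN14, a phosphatase that binds YAP, rose by 0.67 ± 0.05 (adjusted p = 1.15e-06). Among the DNA-binding partners, TEAD1 was 6611, 6653 and 6453 in GFP and 12403, 13382 and 11743 in YAP5SA (0.93 ± 0.04, adjusted p = 2.01e-08). The other TEAD genes, named here after their values were seen, did not move together: TEAD4 was 0.93 higher, TEAD2 was 1.02 lower, both called, and TEAD3 was -0.11 and at the threshold (adjusted p = 0.037, and 0.0512 to 0.113 without any of 7 libraries).

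By amount of transcript, THBS1 gained most and FN1 lost most. The 8 largest gains and 8 largest losses were ranked by the difference in value after scaling each library to a total of 1000000, which is not corrected for transcript length. THBS1, the matricellular protein thrombospondin 1, was 85028, 78365 and 85335 in GFP and 119046, 136254 and 125317 in YAP5SA, a log2 difference of 0.61 ± 0.06 (adjusted p = 4.6e-06). PLAU, the urokinase-type plasminogen activator, fell from 11504, 11250 and 11559 in GFP to 2353, 2834 and 4929 in YAP5SA (-1.83 ± 0.22, adjusted p = 0.000172).

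The fibrillar collagen gene COL11A1 rose by 1.72 ± 0.17, the secreted glycoprotein gene FSTL1 by 0.91 ± 0.06 and the carboxypeptidase gene CPA4 by 1.65 ± 0.18. EZR (ezrin), which links actin to the plasma membrane, rose by 1.05 ± 0.08 (adjusted p = 1.69e-06). Losses were led by FN1, fibronectin, at 434050, 430075 and 424635 in GFP and 341602, 343054 and 326431 in YAP5SA. The FN1 groups did not overlap although the log2 difference was only -0.35 ± 0.04 (adjusted p = 4.58e-05). COL7A1, the anchoring-fibril collagen, fell by 1.03 ± 0.08 on that scale, the hyaluronan receptor gene CD44 by 0.52 ± 0.05, the calcium pump gene ATP2B4 by 0.92 ± 0.07, the tubulin gene TUBA1A by 1.02 ± 0.06 and DCBLD2 by 0.32 ± 0.05. FLNA, the actin crosslinker filamin A, was lower by a small step (-0.14 ± 0.03, adjusted p = 0.00512).

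**Figure D1:**
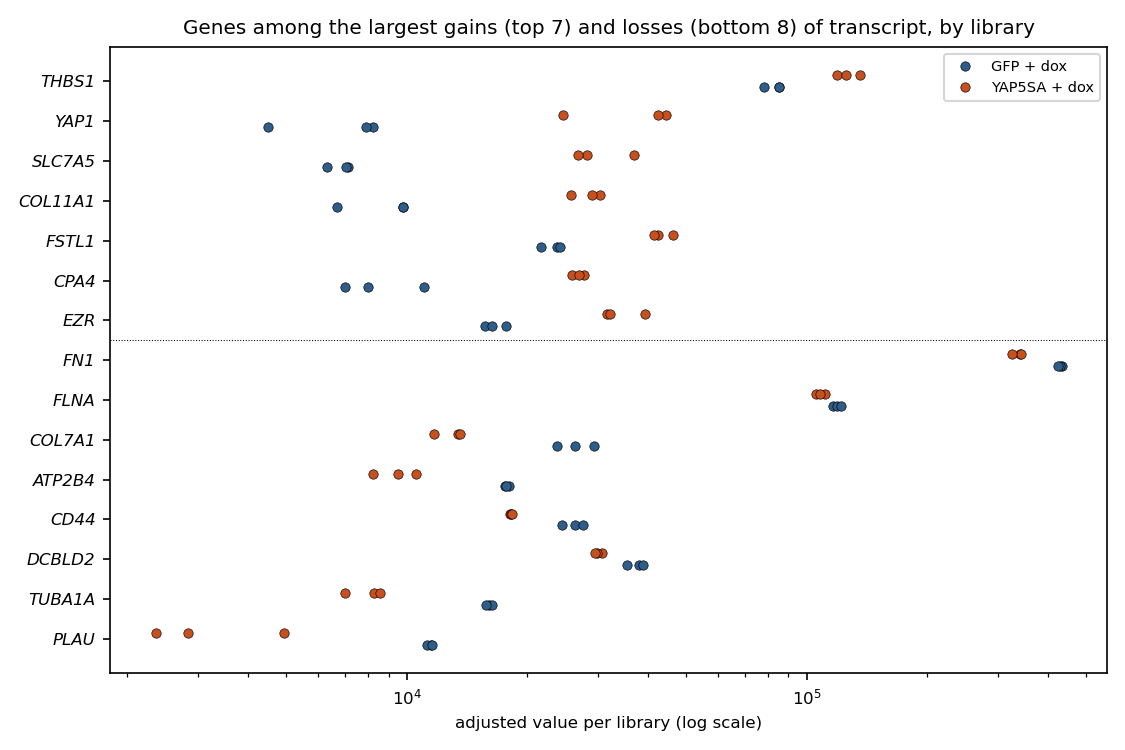
Adjusted values per library (log axis) of 7 genes among the 8 largest gains and the 8 genes with the largest loss of transcript in YAP5SA, blue for GFP and orange for YAP5SA, both with doxycycline. No gene's 3 orange points overlap its 3 blue points; FN1 is at 326431 to 343054 in YAP5SA and at 424635 to 434050 in GFP.

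Basement membrane genes split by chain. Of 20 type IV collagens, laminins and nidogens tested, 7 rose and 5 fell, where 20.1% and 18.3% of all genes did. COL4A4 and COL4A3, chains of the mature glomerular basement membrane network, were both higher: COL4A4 was 1059, 890 and 988 in GFP and 2631, 2852 and 2619 in YAP5SA (1.46 ± 0.06, adjusted p = 1.06e-08), and COL4A3 was 174, 192 and 166 against 595, 664 and 477 (1.67 ± 0.14, adjusted p = 2.01e-06). Without doxycycline they already differed by 0.90 and 1.32. The interaction was called for COL4A4 (0.56, limma adjusted p = 0.00247) and not for COL4A3 (0.35, adjusted p = 0.361). The laminin chain gene LAMA2 rose by 2.21 ± 0.23 from a low level, and LAMA3 fell by 1.04 ± 0.11 (adjusted p = 8.92e-06 and 4.38e-05). All these genes, picked by smallest p, had separate ranges in the compared lines. Of all genes tested 24.9% were separate and higher and 22.5% separate and lower.

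Among interstitial collagens and matrix glycoproteins 11 of 31 rose and 6 fell. The share that fell is near the 18.3% of all genes and the share that rose is above their 20.1%. FBLN5, an elastic-fibre glycoprotein, rose with little spread, from 81, 98 and 91 to 638, 694 and 602 (2.78 ± 0.11, adjusted p = 1.06e-08). COL12A1 rose by 1.64 ± 0.08 and COL6A2 fell by 0.55 ± 0.04. Matrix proteases and their inhibitors were divided, 9 up and 10 down of 25. TIMP3, a matrix-bound inhibitor of metalloproteinases, went from 229, 235 and 221 to 837, 888 and 878 (1.90 ± 0.07, adjusted p = 7.91e-09), while MMP2, a gelatinase, fell by 0.80 ± 0.07 and ADAMTS1 rose by 0.53 ± 0.05.

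Actin and contractility genes were called higher in 14 of 35 and lower in 5, where 20.1% and 18.3% of all genes were. The balance depended on single libraries and on scaling. Without GFP replicate 1 or without YAP5SA replicate 1 the count higher was 9, and with equal totals 10 were higher and 10 lower. CALD1 (caldesmon) rose by 0.45 ± 0.05 and MYLK (myosin light chain kinase) fell by 0.39 ± 0.05. Of 20 integrins 2 rose and 6 fell, and 3 fell without GFP replicate 1. The share of integrins called, 40%, is near the 38.4% of all genes. The laminin receptor subunit gene ITGA6 rose by 0.66 ± 0.05 and the vitronectin receptor subunit gene ITGB3 fell by 0.92 ± 0.12. ITGB2, the integrin chain of leukocytes, was 115, 309 and 351 in GFP and 2205, 1883 and 1516 in YAP5SA (2.96 ± 0.48, adjusted p = 0.00121).

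Cell junction and keratin genes changed in both directions. Of 26 claudins and other tight junction genes 5 rose and 7 fell, with a median of -0.09. The share that rose is near the 20.1% of all genes and the share that fell is above their 18.3%. CGN, the junction adaptor cingulin, was 187, 140 and 112 in GFP and 758, 974 and 755 in YAP5SA (2.48 ± 0.19, adjusted p = 1.57e-06), with OCLN (occludin) at 0.62 ± 0.05 and TJP1 (ZO-1) at 0.35 ± 0.03. CLDN4 fell from 1032, 1124 and 1088 to 333, 115 and 240 (-2.34 ± 0.29, adjusted p = 0.00021), and the adhesion molecule gene F11R fell by 0.59 ± 0.07. Every named junction gene kept its GFP and YAP5SA ranges apart, but they were picked by smallest p or by separate ranges. Over all genes tested 24.9% were separate and higher and 22.5% separate and lower.

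Of 17 keratins and related genes 7 rose and 5 fell, against 20.1% and 18.3% of all genes. The simple-epithelial pair KRT18 and KRT8 rose, by 1.45 ± 0.11 and 0.60 ± 0.06, and KRT19 and the plakoglobin gene JUP fell, by 0.53 ± 0.05 and 0.46 ± 0.05. Without doxycycline KRT18 and KRT8 already differed by 0.95 and 0.46, and KRT19 and JUP by 0.03 and -0.10. KRT19 was nearly constant within each line, at 20659, 20117 and 20702 in GFP and 14212, 14177 and 14105 in YAP5SA.

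Podocyte genes outside the absent markers showed no common direction, with 8 of 29 higher, 9 lower and a median of -0.03. The shares over all genes were 20.1% and 18.3%. SYNPO, the actin-associated protein synaptopodin, was 10878, 10091 and 11655 in GFP and 12991, 13944 and 12664 in YAP5SA (0.28 ± 0.06, adjusted p = 0.00209). PODXL, the sialoprotein podocalyxin, overlapped between the lines, with 1084, 778 and 1388 against 929, 569 and 1146 (-0.31 ± 0.36, adjusted p = 0.538). NES (nestin), an intermediate filament gene of podocytes, fell by 0.91 ± 0.08 (adjusted p = 2.32e-06). Of 20 tested genes linked to parietal epithelial cells, which line the opposite wall of Bowman's capsule, 6 rose and 9 fell, against 20.1% and 18.3% of all genes, with a median of -0.33. SPP1 (osteopontin) fell by 1.11 ± 0.09 and AKAP12 by 0.86 ± 0.07, while KRT18 and KRT19, described above, are also in that list and moved in opposite directions.

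Markers of other kidney and blood cells were compared as values summed on the scale of a library total of 1000000. Tubule genes held 189 to 266 in GFP and 109 to 120 in YAP5SA, and 7 of the 10 tested were lower and none higher. Over all genes tested 18.3% were lower and 20.1% higher. ATP1B1, the beta subunit of the sodium pump, fell by 0.86 ± 0.05, while UMOD and AQP2, defining tubule markers, were 0 in all 12 libraries. Leukocyte genes held 11.3 to 20.8 in GFP and 64.0 to 88.5 in YAP5SA, a sum made mostly of ITGB2. In that list 1 of 7 tested was higher and 2 lower, and the lymphocyte marker MS4A1 was 0 throughout. Endothelial sums were 78.2 to 87.8 against 65.2 to 71.9, with 2 of 7 higher and 2 lower, and PECAM1, CDH5 and KDR were too low to test. Mesangial, fibroblast and smooth muscle sums overlapped, at 3030 to 4340 against 3030 to 4260, although PDGFRB, a mesangial growth factor receptor, rose by 1.87 ± 0.14. The sums of the parietal epithelial list were 5740 to 6060 in GFP and 5180 to 5440 in YAP5SA. Podocyte sums overlapped, at 13800 to 14400 against 13000 to 13900 (exact permutation p = 0.2). The exact two-sided permutation p was 0.1 for the tubule, leukocyte, endothelial and parietal epithelial sums, the smallest that 3 libraries against 3 can give. In bulk RNA, fewer cells of a type and less RNA per cell cannot be told apart, and the part of such cells in other results was not tested.

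Inflammatory genes that were called were mostly lower in YAP5SA. Cytokine and chemokine genes were called lower in 14 of 29 and higher in 3, with a median of -0.57, and NF-kB subunits and targets were lower in 11 of 21 and higher in 1, with a median of -0.53, where 18.3% of all genes were lower. CX3CL1 (fractalkine) was 393, 424 and 334 in GFP and 106, 100 and 119 in YAP5SA (-1.77 ± 0.11, adjusted p = 1.42e-07). CXCL8 (interleukin-8) was 816, 839 and 758 in GFP and 213, 208 and 355 in YAP5SA (-1.66 ± 0.18, adjusted p = 3.21e-05). The NF-kB feedback and signalling genes BCL3, IRAK2 and BIRC3 fell by 0.97 ± 0.11, 1.65 ± 0.20 and 1.23 ± 0.18.

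The exceptions among the cytokines were large. IL18, a cytokine processed by inflammasomes, rose from 203, 182 and 251 to 840, 884 and 788 (1.97 ± 0.13, adjusted p = 1.97e-07), and the eosinophil chemokine gene CCL11 rose by 2.30 ± 0.24 (adjusted p = 1.86e-05). Interferon response genes were 8 higher and 5 lower of 31, and the share called, 41.9%, is near the 38.4% of all genes. The count higher depended on single libraries: 5 without GFP replicate 1, 4 without YAP5SA replicate 1, 13 without YAP5SA replicate 2 and 5 without YAP5SA replicate 3. GBP2, a guanylate-binding protein, fell by 1.60 ± 0.18 and BST2 (tetherin) rose by 0.53 ± 0.07. Of 17 complement genes 4 rose and 1 fell, a rising share near the 20.1% of all genes, and 3 rose and 2 fell with equal totals. The membrane regulator gene CD55 rose by 0.81 ± 0.07 and the C1 inhibitor gene SERPING1 by 0.96 ± 0.19 (adjusted p = 1.66e-06 and 0.00284).

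Secreted growth factors were called in both directions, 15 higher and 13 lower of 45, against 20.1% and 18.3% of all genes. With equal totals 14 were called each way. NRG1, a ligand of ERBB receptors, WNT5B and the vasoconstrictor gene EDN1 (endothelin-1) rose by 1.04 ± 0.07, 0.93 ± 0.05 and 0.73 ± 0.05. None of these 3 genes, picked by smallest p, had a GFP library reaching the YAP5SA range. Such separate and higher ranges were found for 24.9% of all genes tested.

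Axon guidance and Eph genes were 10 higher and 13 lower of 37, where 20.1% and 18.3% of all genes were. SLIT2, the repulsive ligand of ROBO receptors, was 226, 212 and 208 in GFP and 729, 811 and 746 in YAP5SA (1.80 ± 0.08, adjusted p = 1.06e-08). The ephrin receptor gene EPHA2 rose by 0.63 ± 0.04 and the semaphorin gene SEMA4B fell by 1.09 ± 0.07. TGF-beta and SMAD response genes were lower in 10 of 22 and higher in 4, against 18.3% and 20.1% of all genes, with a median near 0 (-0.08). The transcriptional repressor gene SNAI2 fell by 0.73 ± 0.06, ID1 by 0.87 ± 0.11 and KLF10 by 0.41 ± 0.06, and LTBP1, which encodes a binding protein of latent TGF-beta and was picked after its value was seen, rose by 0.38 ± 0.09 (adjusted p = 0.00472). Immediate early and AP-1 genes were 8 higher and 10 lower of 29, with the phosphatase gene DUSP1 up by 0.61 ± 0.05 and JUND down by 0.78 ± 0.07.

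**Figure D2:**
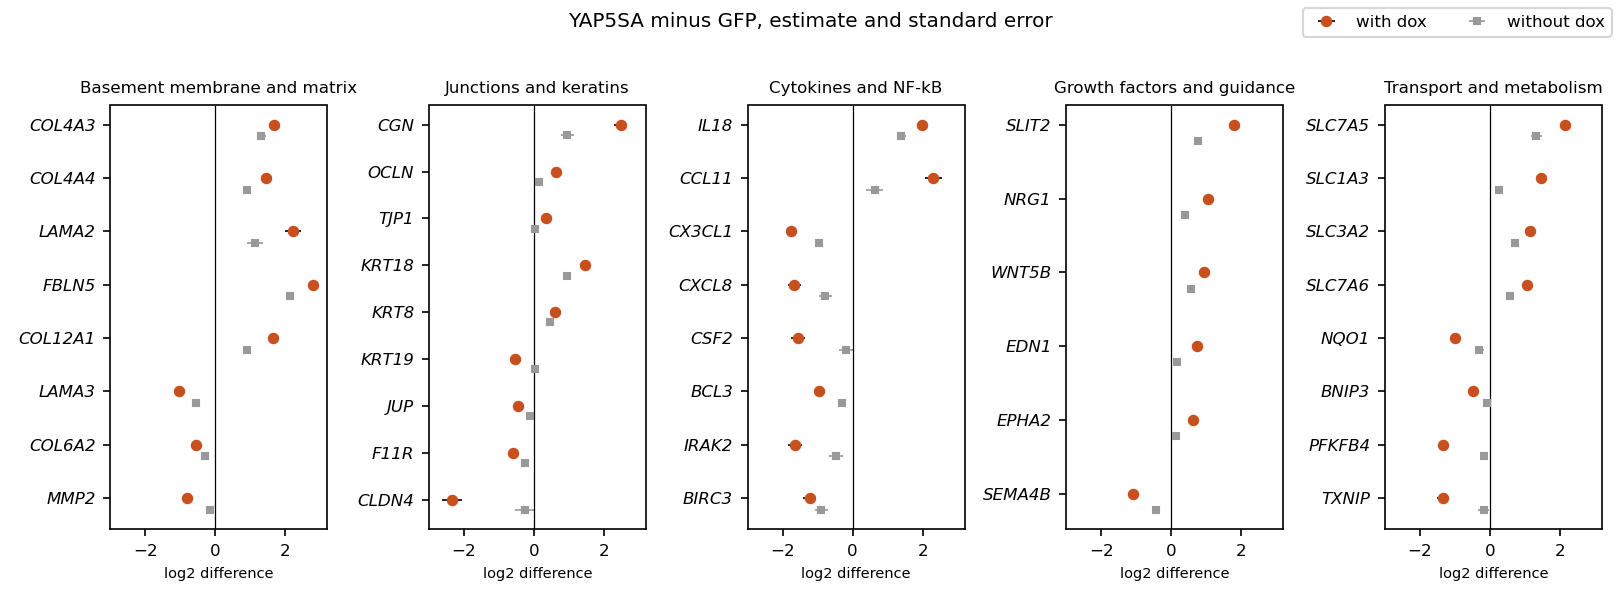
Log2 difference between YAP5SA and GFP with its standard error for named genes grouped by role, circles with doxycycline and grey squares without. CGN and SLC7A5 stand above 2 with doxycycline and CLDN4 below -2, and the squares lie closer to 0 than the circles.

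Amino acid transporter genes were called higher in 12 of 26 and lower in 4, against 20.1% and 18.3% of all genes. Their median was 0.24. SLC7A5 and SLC3A2 encode the light and heavy chain of the LAT1 transporter of large neutral amino acids. SLC7A5 was 7114, 7059 and 6317 in GFP and 28261, 36899 and 26784 in YAP5SA (2.15 ± 0.16, adjusted p = 6.8e-06), and SLC3A2 rose by 1.13 ± 0.08. The glutamate transporter gene SLC1A3 rose by 1.45 ± 0.11 and SLC7A6 by 1.05 ± 0.08 (adjusted p = 7.74e-07 and 9.84e-07). The targets of ATF4, a factor induced by amino acid shortage, were 2 higher and 6 lower of 22. Their share called, 36.4%, is near the 38.4% of all genes. DDIT4, an inhibitor of mTORC1, fell from 805, 970 and 786 to 341, 152 and 199 (-1.94 ± 0.25, adjusted p = 0.000188).

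Calls among stress and glycolytic genes were mostly lower, where 18.3% of all genes were called lower and 20.1% higher. NRF2 targets, aldo-keto reductases and drug-metabolism genes were lower in 21 of 37 and higher in 3 (median -0.31). NQO1, a quinone reductase and common NRF2 reporter, was 1282, 1138 and 1249 in GFP and 576, 528 and 751 in YAP5SA (-0.99 ± 0.12, adjusted p = 3.65e-05). P53 targets were lower in 14 of 26 and higher in 2 (median -0.23), TP53INP1 by 0.75 ± 0.05. Glycolysis and hypoxia genes were lower in 14 of 31 and higher in 3 (median -0.16). PFKFB4, which makes the glycolytic activator fructose 2,6-bisphosphate, was 1997, 2166 and 1907 in GFP and 836, 747 and 804 in YAP5SA (-1.34 ± 0.06, adjusted p = 2.01e-08), and the mitophagy receptor gene BNIP3 fell by 0.49 ± 0.05.

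Cholesterol and fatty acid synthesis genes were 11 higher and 6 lower of 29, where 20.1% and 18.3% of all genes were. With equal totals 9 of them were higher and 8 lower. The sterol oxidase gene MSMO1 was up by 0.63 ± 0.05 and the sterol sensor gene INSIG1 down by 0.81 ± 0.10. Nuclear genes for oxidative phosphorylation were 8 higher and none lower of 42, a share near the 20.1% of all genes. The count higher was 5 without GFP replicate 1, 3 without GFP replicate 2, 4 without YAP5SA replicate 1 and 3 with equal totals.

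Calls for genes of cell division depended on single libraries. Of 34 mitosis genes 14 were called higher and none lower, with a median of 0.59. That compares with 20.1% higher and 18.3% lower over all genes tested. ANLN (anillin) was 3262, 4740 and 5009 in GFP and 8914, 6462 and 6198 in YAP5SA (0.73 ± 0.19, adjusted p = 0.0119), so the widest gap was in replicate 1. CDC20, an activator of the anaphase-promoting complex, was 384, 642 and 630 against 1076, 845 and 768 (0.72 ± 0.19, adjusted p = 0.0132). The mitosis count was 4 without GFP replicate 1, 3 without YAP5SA replicate 1, 8 or 9 without YAP5SA replicate 2, any of the YAP5SA libraries without doxycycline or GFP replicate 2 without doxycycline, 9 with the replicate 1 term and 6 with equal totals. It was 3 with the replicate block over 12 libraries, 4 with replicates 2 and 3 alone and 1 in the 6 libraries compared alone, with or without the block. In those 6 libraries ANLN and CDC20 had adjusted p of 0.0621 and 0.0691 without the block and 0.261 and 0.273 with it. The checkpoint kinase gene BUB1B (0.59 ± 0.18, adjusted p = 0.0216) was not called without YAP5SA replicate 1 (0.45, adjusted p = 0.0764).

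Genes of the G1/S transition were 7 higher and 5 lower of 41, and the share called, 29.3%, is below the 38.4% of all genes. Over all genes tested 20.1% were higher and 18.3% lower. With equal totals 5 G1/S genes were higher and 7 lower. The count lower was 3 without GFP replicate 1, GFP replicate 3 or YAP5SA replicate 1. The cyclin genes CCND3 and CCND1 rose by 0.65 ± 0.06 and 0.40 ± 0.05, and E2F7, a repressor of cell cycle genes, fell by 1.03 ± 0.10. Ribosome biogenesis genes were higher in 14 of 28 and lower in 1 (median 0.16), or 9 and 2 with equal totals, with BYSL up by 0.44 ± 0.05 and LYAR by 0.63 ± 0.09, and the polymerase I factor gene UBTF the 1 that was lower (-0.44 ± 0.04). Cytosolic ribosomal protein genes were lower in 5 of 72 and higher in none, and their 6.94% called is well below the 38.4% of all genes. The count lower was 2 without replicate 1 of either line, and 21 with equal totals. Apoptosis regulators were 5 higher and 8 lower of 21, and 1 higher with equal totals. The count higher was 2 or 3 without GFP replicate 1, GFP replicate 3, YAP5SA replicate 1 or YAP5SA replicate 2. The pro-death BH3-only genes BMF and BCL2L11 fell by 2.26 ± 0.38 and 1.27 ± 0.16, the survival gene BIRC2 also fell, by 0.33 ± 0.05, and the survival gene BCL2L1 rose by 0.32 ± 0.04.

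The largest proportional changes were in genes with low values in 1 line, where the adjustment weighs most. NPPB, the natriuretic peptide precursor, was an exception in level, at 1494, 1087 and 1518 in GFP and 9364, 11163 and 9879 in YAP5SA (2.90 ± 0.17, adjusted p = 1.23e-06). NPAS1, a bHLH-PAS transcription factor, was 5, 51 and 50 against 746, 973 and 768, and KRT4 was 1, 3 and 2 against 70, 92 and 37. Several genes among the largest rises, CLIC5 and PTPRQ for example, had a GFP value of 0 in replicate 1 and broke the replicate identity, so no fold is given for them. The call for CLIC5 was lost without GFP replicate 1 or any of the 3 YAP5SA libraries. CLIC5, an ezrin-associated protein of foot processes, was 0, 45 and 49 in GFP and 343, 225 and 286 in YAP5SA.

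On the falling side KLHL4 went from 120, 141 and 136 to 46, 5 and 13, and the aldo-keto reductase gene AKR1C3 from 54, 50 and 53 to 9, 1 and 8 (-2.48 ± 0.25, adjusted p = 7.21e-06). GCNT3, a mucin glycosyltransferase, went from 331, 306 and 357 to 62, 25 and 105, and the leukocyte adhesion receptor gene VCAM1 from 852, 872 and 657 to 86, 181 and 301. The ranges of the lines were separate in each of these genes, which the rule that picked them required.

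The same contrast of lines in the 6 libraries without doxycycline asked how much of the difference was present without induction. There 1470 genes were called (8.35%), 1021 higher (5.80%) and 449 lower (2.55%). Of the 3537 genes higher with doxycycline 941 were also higher without it (26.6%), which is 92.2% of those higher without. Of the 3219 lower with doxycycline 384 were also lower without it (11.9%), or 85.5% of those lower without. Calls in the opposite direction numbered 9. Over the genes called with doxycycline the sign was the same without it for 89.9% of the higher and 88.9% of the lower ones, with a median difference 0.417 and 0.360 times as large. Both comparisons use the same lines and values adjusted together, so they are not independent. The count without doxycycline was 723, 667, 555 and 966 when GFP replicate 1, GFP replicate 2, YAP5SA replicate 1 or YAP5SA replicate 2 of those groups was left out, and 103 with replicates 2 and 3 alone. With the replicate number as a block it was 2951 over the 12 libraries and 3170 within the 6.

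The difference between the differences, tested as an interaction, was called for 1182 genes (6.71%), 653 of them positive (3.71%) and 529 negative (3%). It had the same direction as the induced difference for 642 of the 3537 higher genes and 517 of the 3219 lower ones. TEAD1, AMOTL2, CCN2 and CCN1 were among them, with values without doxycycline of 0.30, 0.44, 0.47 and 0.03 beside 0.93, 1.17, 1.08 and 0.45 with it. YAP1 was 0.21 without and 2.44 with the drug (interaction adjusted p = 0.0436), a call that was lost when any of 10 of the 12 libraries was left out. Leaving out GFP replicate 3 or YAP5SA replicate 1 without the drug, or GFP replicate 1 with it, lowered the count of interaction calls to 769, 777 or 739, and replicates 2 and 3 alone called 26, while the replicate block over 12 libraries raised it to 2445. Sizeable differences without the drug, picked out here after their values were seen, were found for FBLN5 (2.14 without, 2.78 with), IL18 (1.39 and 1.97), TIMP3 (1.36 and 1.90) and SERPING1 (0.93 and 0.96).

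Other genes differed by less than 0.25 without doxycycline and by over 1 with it. FAT3, an atypical cadherin, was 548, 480 and 622 in GFP and 1414, 1332 and 1562 in YAP5SA with the drug (1.38 ± 0.12, against 0.19 without). AJAP1, a junction-associated membrane protein, and DNAJC6, the clathrin-uncoating cofactor auxilin, rose by 1.36 ± 0.12 and 1.13 ± 0.07, against 0.07 and 0.10 without. In the other direction GDF5, a BMP-family ligand, went from 1048, 1122 and 1142 to 354, 252 and 442 (-1.68 ± 0.16, against -0.22 without). CSF2 (GM-CSF), TXNIP, an inhibitor of thioredoxin and glucose uptake, and PFKFB4 were -1.55 ± 0.20, -1.35 ± 0.15 and -1.34 ± 0.06 with doxycycline and -0.18, -0.18 and -0.17 without.

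Of the 9 genes called in opposite directions with and without the drug, 4 are given here. SLC16A3, the lactate exporter MCT4, was -0.33 ± 0.04 with doxycycline and 0.18 without, and SLC2A1, the glucose transporter GLUT1, was -0.20 ± 0.05 and 0.17. The semaphorin receptor gene PLXNA3 was -0.19 ± 0.04 and 0.16. PPARGC1A, the co-activator of mitochondrial biogenesis, was 67, 56 and 80 in GFP and 114, 93 and 118 in YAP5SA with doxycycline (0.65 ± 0.14) and -0.52 without. The sizes were small in the transporters. SLC2A1 without the drug was at the threshold (adjusted p = 0.0496) and its lines overlapped there, at 8472, 8891 and 8158 in GFP and 9839, 10133 and 8834 in YAP5SA. The adjusted p without the drug was 0.0173 for SLC16A3, 0.0341 for PLXNA3 and 0.0402 for PPARGC1A, and the lines did not overlap in those 3.

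**Figure D3:**
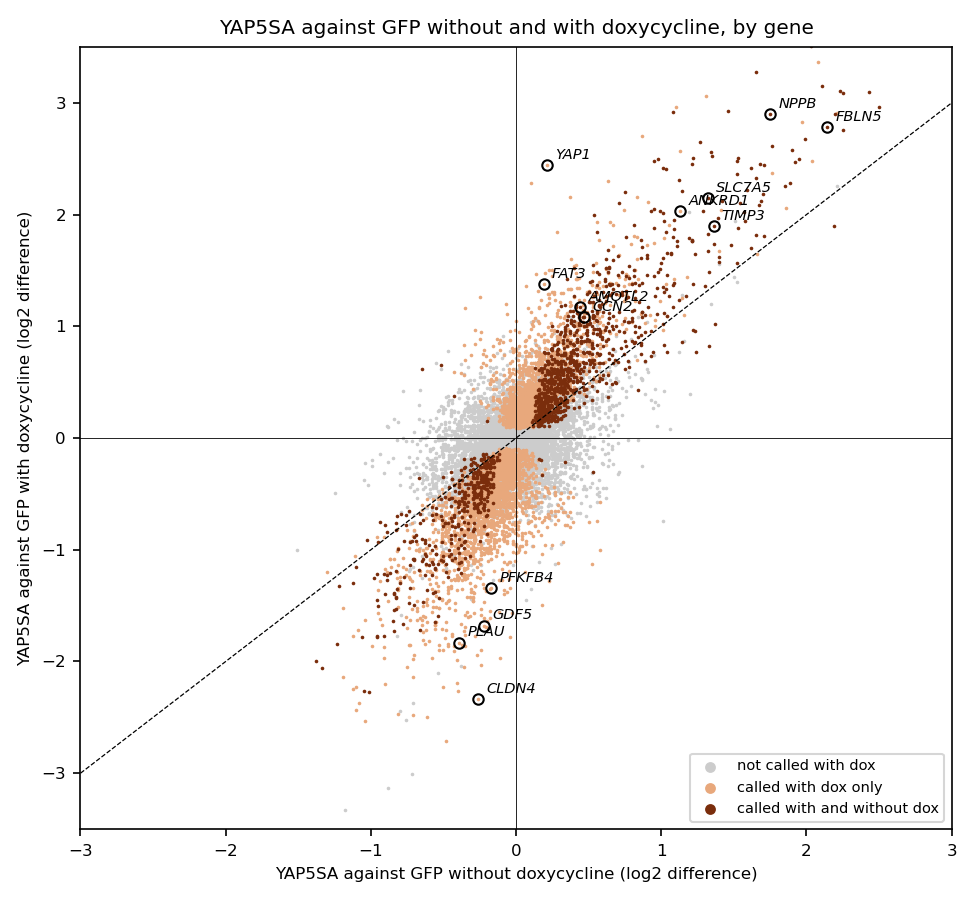
Log2 difference between YAP5SA and GFP for each gene tested, without doxycycline (horizontal) and with it (vertical), coloured by the calls; the dashed line marks equal differences and 11 genes lie outside the axes. YAP1, FAT3, PFKFB4, GDF5 and CLDN4 sit near 0 on the horizontal axis, while FBLN5 and TIMP3 are high on both.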

How the data were processed

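RNA-seq of 12 libraries was read from 1 table of whole numbers, the 6 libraries with doxycycline forming the comparison. The labels' protocols give an mRNA-Seq library kit with 1000 ng of input RNA per library. The submitters' processing notes name DRAGEN, featureCounts, Subread, limma, DESeq2 and the build GRCh38 (hg38). Tool versions, roles and the strand setting are not stated in the labels, so a gene and its antisense partner may share reads. The deposited values were treated as a score of the authors, not as counts: they are on a common scale and satisfy a linear identity between replicate numbers, with 24935 of 62656 genes at 0 throughout. What produced the identity is not given in the sources used here. A count model had been planned, and because the values are not counts it was replaced by limma.

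Genes with a value of at least 10 in 3 or more libraries were tested (17604) on log2(value + 5), which understates changes of low genes, with limma 3.58.1 in R 4.3.3 (trended, robust empirical Bayes; 12 libraries, 4 group means, 8 residual degrees of freedom). Benjamini-Hochberg adjustment covered all genes tested in a contrast, and a gene was called below 0.05. All differences are on that log2 scale with the standard error, and the fit was checked on simulated data. Gene names matched for 62639 identifiers, and GENCODE 29 positions for 58220. Promoter windows were RefSeq's on GRCh38.p14, and 12124 tested genes had one.

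Genes named were, in the comparison with doxycycline, the largest called rises and falls with separate groups and a value of at least 2 at a library total of 1000000, the 8 largest gains and losses on that scale, up to 4 members of each list by smallest p, genes called oppositely or differing with doxycycline alone, and a fixed set of YAP, Hippo and podocyte genes; some that the rule names are not reported here. The members and lists were chosen with earlier results of these data known. Alternatives were other scalings, filters, pseudocounts, a fold minimum, the replicate number as a block, the 6 libraries alone and each library left out. Those with other pseudocounts, equal totals, a replicate 1 term, the linear scale or replicates 2 and 3 alone were chosen after seeing the data. Depth per library cannot be read from adjusted values, so no counting intervals are given.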

Additional observations from a re-analysis of the deposited data

Results flagged for a closer look

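The interaction test of limma was drawn on here only for the fixed set and for genes called oppositely or differing with doxycycline alone. Among these, 17 had a difference between YAP5SA and GFP that itself differed with and without the drug. Other genes described also passed that test and are not listed, LATS2 (0.81, adjusted p = 0.00054) and KRT19 (-0.56, adjusted p = 0.000471) among them. All values are the difference with the drug minus that without it, on the log2 scale. Positive values were found for YAP1 (2.23), AJAP1 (1.30), FAT3 (1.19), PPARGC1A (1.17), DNAJC6 (1.03), AMOTL2 (0.73), TEAD1 (0.63), CCN2 (0.60), CCN1 (0.42) and AXL (0.30). Negative values were found for GDF5 (-1.46), CSF2 (-1.37), PFKFB4 (-1.17), TXNIP (-1.17), SLC16A3 (-0.51), SLC2A1 (-0.37) and PLXNA3 (-0.35). Leaving out a library ended the call for YAP1 and for none of the other 16, while replicates 2 and 3 alone left 1 of the 17 called, PFKFB4. Genes given as differing with doxycycline alone, such as FAT3 and GDF5, were picked by a rule that required the interaction call. Genes called oppositely were picked by their calls in both comparisons. For both kinds of gene the interaction call follows largely from how they were picked.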

How the results depend on the processing

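Of the genes described, the 125 called with doxycycline kept their direction in all 26 alternatives, and 23 lost the call in at least 1. With doxycycline, replicates 2 and 3 alone called 3087 genes (1735 higher, 1352 lower) and a minimum log2 difference of 1 called 867 (439 and 428); leaving out a library gave 5324 to 6763 (2887 to 3538 higher, 2437 to 3225 lower). Without doxycycline, replicates 2 and 3 alone called 103 (102 and 1), the fold minimum 121 (108 and 13), the linear scale with a replicate block 3027 (1709 and 1318), and 712, 713 and 274 were lower with YAP1 left out of equalised totals, with equal totals and with the replicate 1 term. Leaving out a library gave 555 to 1664 calls (432 to 1083 higher, 123 to 581 lower), the lowest without uninduced YAP5SA replicate 1. For the interaction the corresponding calls were 26 (21 and 5), 111 (47 and 64) and 2557 (1476 and 1081), and 739 to 1394 (433 to 697 and 306 to 697) leaving out a library, the lowest without GFP replicate 1 with doxycycline. Between YAP5SA and GFP libraries of the same number, the correlation of deviations within groups was -0.333, 0.259 and 0.228 with doxycycline and -0.304, 0.264 and 0.323 without, for replicates 1, 2 and 3. The replicate identity constrains the replicate 1 deviations, so their negative value does not show that the numbers do not pair, and whether they pair was not settled; replicates 2 and 3 stood apart in every group on the second principal component (14.3 to 22.6 and -18.6 to -14.6). A replicate block over 12 libraries called 7989 genes with doxycycline, 2951 without (1807 and 1144) and 2445 for the interaction (1249 and 1196); within 6 libraries it called 6750 with and 3170 without (1817 and 1353), and there 16 described genes missed the threshold, YAP1 and ANKRD1 among them (limma adjusted p 0.0531 to 0.312). In windows of the 250 bases before the start only, the motif shares were 11.9% of all windows, 9.98% of tested, 11.6% of higher, 9.66% of lower and 9.43% of uncalled genes. Count models were not run, since the values are not counts. Causes of these shifts were not tested. Sequencing depth cannot be recovered from the adjusted values, which limits statements on genes near 0.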
